A study of Bos taurus with 22 samples.

Results

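The jejunal mucosa of steers given the gut hormone glucagon-like peptide 2 (GLP-2) was compared directly with that of steers given the milk protein casein into the abomasum, the glandular stomach ahead of the small intestine. The 11 steers that received one treatment but not the other were selected from the 22 steers of the experiment by their treatment labels. All were Holstein steers approaching a year of age, weighing 220 to 273.6 kg, and all received raw corn starch into the abomasum at 3.94 g per kg of body weight per day throughout a 7 d treatment period. The 5 steers of the GLP-2 group, from blocks 1, 3, 4, 5 and 6, were infused with water and injected with 100 µg of GLP-2 per kg of body weight per day. The 6 steers of the casein group, from blocks 1 to 6, were infused with sodium caseinate at 1.30 g per kg of body weight per day and injected with bovine serum albumin, the vehicle of the hormone. The 5 control steers received water and vehicle, and 6 steers received casein with GLP-2; both enter below only beside a result and in the shared estimate of the spread. Steers were blocked by body weight, and each steer is 1 library, so the spread between libraries includes the spread between animals.

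GLP-2 is released by enteroendocrine L cells when nutrients reach the distal gut, and it acts on a receptor carried mainly by cells beneath the epithelium, which pass growth signals to the mucosa. Casein is digested in the lumen and at the brush border to peptides and amino acids, which enterocytes take up through dedicated transporters. The direct comparison asks which mucosal transcripts differ when starch digestion is accompanied by the hormone or by luminal protein.

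Transcripts of the brush border enzymes and transporters of protein digestion had higher levels in GLP-2 steers than in casein steers, and transcripts of B cell follicles and of ribosome assembly had lower levels. None of these differences passed correction for the number of genes, and several were much smaller once 1 to 3 animals were left out. By edgeR's quasi-likelihood test, 0 of 15086 genes had an adjusted p no greater than 0.05, which is 0% of the genes tested, and 0 had one no greater than 0.1. The smallest adjusted p was 0.632, so that every gene named below had an adjusted p of 0.632 or more. An unadjusted p no greater than 0.05, called the nominal threshold below, was reached by 1107 genes (7.34% of those tested). If no gene differed, a share of about 0.05 would be expected to reach it. Of the 1107 genes, 446 had the higher level in GLP-2 steers (2.96% of those tested) and 661 the lower (4.38%). With a correction for gene length the same split was 244 higher and 1289 lower. DESeq2 called 6 genes (0.0398%), all lower with GLP-2, and limma on the FPKM values called 0. The median log2 fold change over all genes was -0.000703, and the median standard error of a fold change was 0.33. Levels are given as CPM, the counts of a gene scaled to the total of its library and between libraries by TMM, and every log2 fold change is GLP-2 minus casein unless another contrast is named.

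Total counts ranged from 10447886 to 28447810 in the GLP-2 group and from 9003688 to 23666186 in the casein group. Genes detected, meaning genes with at least 1 count, numbered 17306 to 18602 in the GLP-2 libraries. In the casein group they numbered 15140, 14821 and 15681 in blocks 1, 2 and 3, and 17085 to 17767 in blocks 4, 5 and 6. The control libraries of blocks 3 and 5 were as low, at 15372 and 15318. The 3 casein libraries with few genes detected also stood apart in several groups of genes described below, and the casein steer of block 3 was rich in B cell follicle transcripts. On the GLP-2 side, the steer of block 3 had the highest level of many digestive enzymes. With the 3 casein libraries left out, an alternative chosen after seeing the data, 138 of 15481 genes (0.891%) passed the nominal threshold. Of the 73 named genes past that threshold with all steers, 17 were still past it in this fit, and 43 had a value over 1.5 times smaller or of the other sign. Without the GLP-2 steer of block 3, 41 of the 73 were still past it. Fits with fewer steers are less precise, so genes can drop out for that reason alone. The named genes were in part picked by smallest p with all steers, so some shrinkage is expected. The low control libraries stayed in these fits. Over all genes, 507 (3.29%) passed the nominal threshold without the GLP-2 steer of block 3. The number was 609 (3.96%) without the GLP-2 steer of block 6, and 715 (4.77%) without the casein steer of block 3. These shares are below the one expected if no gene differed. Leaving out the casein steer of block 6 raised the number to 1836 (12.2%). The presence of enterocytes was checked with 2 of their genes, chosen after their values were seen. These genes are not particular to the jejunum, so they do not test the label of the segment. VIL1, which encodes the microvillus protein villin, was between 1280.3 and 3206 CPM in GLP-2 steers and between 405 and 2046 CPM in casein steers, and FABP2, the intestinal fatty acid-binding protein, was between 7672 and 27095 CPM in GLP-2 steers and between 1889.6 and 14362 CPM in casein steers.

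**Figure D1:**
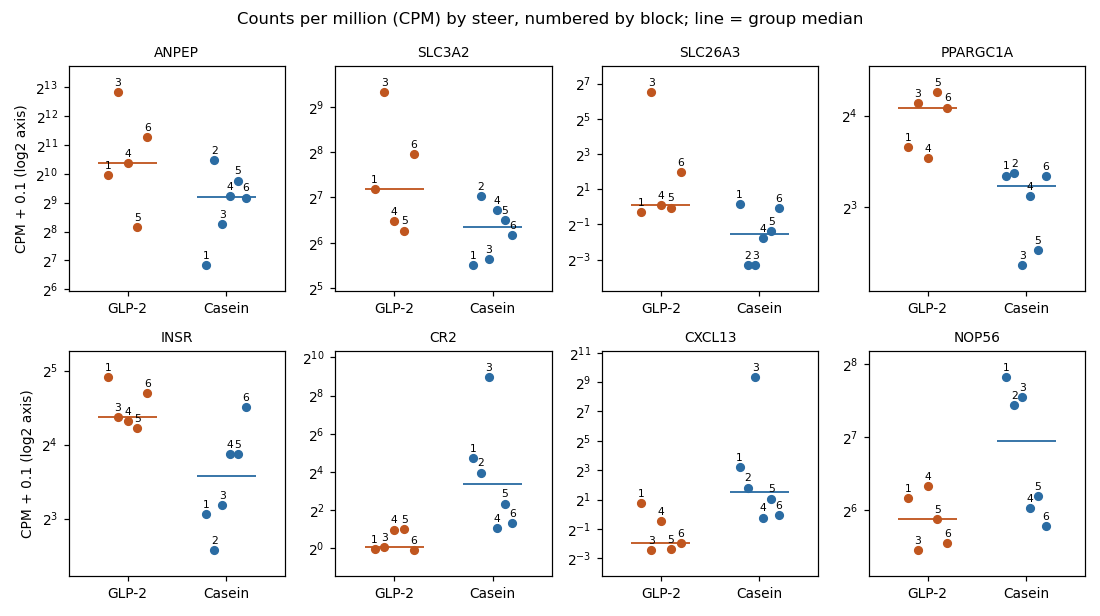
CPM plus 0.1 on a log2 axis for 8 genes, with 1 point per steer, the block number above each point and a line at the group median, for the 5 GLP-2 and 6 casein steers. The GLP-2 steer of block 3 is highest for ANPEP, SLC3A2 and SLC26A3, PPARGC1A does not overlap between the groups, INSR overlaps only through the casein steer of block 6, and the casein steer of block 3 is highest for CR2 and CXCL13.

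The brush border peptidases cut oligopeptides at the surface of the enterocyte. All 13 members tested had a higher value with GLP-2, where 50% of all genes did, and their median difference was 1.32 (0.37 to 3.06). The nominal threshold was passed by 7 of the 13. ANPEP (aminopeptidase N, ENSBTAG00000016881, chromosome 21, 21195680 to 21213021 on the ARS-UCD1.2 assembly) was at 988, 7231, 1325, 285 and 2464 CPM in the GLP-2 steers of blocks 1, 3, 4, 5 and 6. In casein steers ANPEP had a lowest level of 114, a median of 589.9 and a highest of 1410.5 CPM. The GLP-2 steers of blocks 3 and 6 lay above all casein steers, and those of blocks 1, 4 and 5 lay within the casein range. ANPEP had a log2 fold change of 1.93 ± 0.87 (SE; adjusted p = 0.632), and 1.01 without the GLP-2 steer of block 3. ENPEP, aminopeptidase A, was likewise highest in the GLP-2 steers of blocks 3 and 6, with 183, 849, 27.1, 8.05 and 332 CPM in the GLP-2 group against 4.98 to 66.9 CPM (median 32.5) in the casein group. Its log2 fold change was 3.06 ± 1.31, and 2.07 without the GLP-2 steer of block 3. For MEP1A, a subunit of the metalloprotease meprin A, the GLP-2 levels were 409.7, 859, 259, 380.3 and 946 CPM and the casein levels ran from 18.9 to 313 CPM with a median of 169.7. Its low values were those of casein blocks 1, 2 and 3, at 18.9, 93.7 and 26.0 CPM. MEP1A had a log2 fold change of 1.82 ± 0.75, between 1.58 and 2.11 as single steers were left out and 1.05 without those 3.

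MME, the membrane endopeptidase neprilysin, differed by 1.11 ± 0.41 on the log2 scale, and XPNPEP2, an aminopeptidase that removes residues ahead of proline, by 1.64 ± 0.62. Both fold changes were in the same direction in each fit that left out 1 steer, and without casein blocks 1, 2 and 3 they were 0.56 and 1.05. NAALADL1, a further peptidase of the list, is a different case: it was at 113 CPM in the GLP-2 steer of block 3 and between 2.52 and 8.0 CPM in the other GLP-2 steers. The casein steers held 0.65 to 5.89 CPM, and the log2 fold change of 2.97 ± 0.85 was 0.51 without that steer. The median of the 13 peptidases was 0.91 without the GLP-2 steer of block 3 and 0.89 without casein blocks 1, 2 and 3. In those fits the number past the nominal threshold was 0 and 1.

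Peptide and amino acid transporters carry the products onward. Of 20 tested, 14 had a higher and 6 a lower value in GLP-2 steers, the median log2 fold change was 0.79, and 8 passed the nominal threshold, all of them higher. SLC3A2 (ENSBTAG00000013240, chromosome 29, 41158413 to 41199503), the heavy chain shared by several exchangers of the basolateral membrane, was at 146, 640, 88.9, 77.1 and 247 CPM in GLP-2 steers of blocks 1, 3, 4, 5 and 6. In casein steers it ranged from 45.2 to 131 CPM with a median of 80.8. The GLP-2 steers of blocks 1, 3 and 6 lay above all casein steers and those of blocks 4 and 5 among them. SLC3A2 had a log2 fold change of 1.55 ± 0.43, 0.80 without the GLP-2 steer of block 3, and 1.46 without casein blocks 1, 2 and 3.

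The order of the GLP-2 steers was the same for SLC7A7 and SLC7A8, light chains that pair with SLC3A2. SLC7A7, the light chain that exports cationic amino acids, was at 162, 498, 114, 102 and 292 CPM with GLP-2 and at 41.8 to 147 CPM with casein, a log2 fold change of 1.17 ± 0.40. SLC7A8, a light chain for neutral amino acids, was at 173, 743, 75.2, 25.7 and 315 CPM with GLP-2 and differed by 2.38 ± 0.86. Without the GLP-2 steer of block 3 these were 0.71 and 1.56. At the apical membrane, SLC7A9, the light chain of the cystine transporter, was at 195 CPM in the GLP-2 steer of block 3 against 3.2 to 50.5 CPM in the other GLP-2 steers. Its log2 fold change was 2.90 ± 1.01, 1.49 without that steer and 4.02 without the casein steer of block 2. SLC6A19, the apical transporter of neutral amino acids, was at 137, 974, 59.8, 23.8 and 288 CPM with GLP-2 and at 3.49 to 143 CPM with casein, a log2 fold change of 2.25 ± 1.06. Without the GLP-2 steer of block 3 the value was 1.06. SLC15A1, the apical peptide transporter, was at 418, 1509.7, 192, 139.8 and 758 CPM with GLP-2 and at 68.4 to 495 CPM (median 260.0) with casein. Its log2 fold change was 1.26 ± 0.64, and 0.61 without the GLP-2 steer of block 3. The higher values thus included transporters of both the apical and the basolateral membrane.

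The transporters with lower values included carriers of neutral amino acids. SLC1A5, a glutamine carrier, was at 25.7, 8.20, 20.0, 12.1 and 12.7 CPM with GLP-2, and at 46.8, 42.1 and 38.5 CPM in casein blocks 1, 2 and 3 but 13.5, 14.0 and 9.49 CPM in casein blocks 4, 5 and 6. Its log2 fold change was -0.80 ± 0.44 and changed sign, to 0.34, without the former 3 casein steers. SLC7A5, another light chain of SLC3A2, had a different order of GLP-2 steers, at 14.9, 5.75, 8.82, 11.1 and 6.93 CPM, with the steer of block 3 lowest. It had a log2 fold change of -0.78 ± 0.54 and likewise changed sign in that fit, to 0.29. The median of all 20 transporters was 0.61 without the GLP-2 steer of block 3 and 0.54 without casein blocks 1, 2 and 3, with 2 members past the nominal threshold in each case.

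Among 22 enzymes of amino acid and ammonia metabolism, 17 had a higher value with GLP-2, the median was 0.33, and 3 passed the nominal threshold. ARG2, the mitochondrial arginase, was at 7.18, 16.6, 6.81, 8.05 and 9.76 CPM with GLP-2 and at 4.15 to 7.91 CPM with casein, a log2 fold change of 0.77 ± 0.30 that was 0.50 without the GLP-2 steer of block 3. PRODH, which begins proline breakdown, differed by 0.72 ± 0.32 and GPT2, the mitochondrial alanine aminotransferase, by 1.05 ± 0.47. CPS1, the entry enzyme of the urea cycle and of intestinal citrulline synthesis, was at 1671, 2027, 1124, 1176 and 1841 CPM with GLP-2 and at 597 to 1289 CPM (median 1166) with casein. Its log2 fold change was 0.57 ± 0.29, and the GLP-2 steers of blocks 4 and 5 lay within the casein range. The targets of ATF4, the factor that responds to a shortage of amino acids, showed little net difference: 6 of 20 had a higher value, the median was -0.13, and 1 gene in each direction passed the nominal threshold. These were PSAT1, of serine synthesis, at -1.45 ± 0.61, and SLC7A11, a cystine importer under 2 CPM in each of these 11 steers, at 2.38 ± 1.09. PSAT1 was highest in the casein steer of block 3 (65.9 CPM) and its value was 0.11 without casein blocks 1, 2 and 3. ASNS, asparagine synthetase and a marker of that response, did not separate the groups (-0.23 ± 0.30), and its value was 0.0024 without the casein steer of block 1.

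Brush border carbohydrases complete the digestion of starch and sugars to monosaccharides. All 4 had higher values in GLP-2 steers, the median log2 fold change was 0.89, and 1 passed the nominal threshold. LCT (lactase) was at 3577, 3139, 695, 1118 and 5568 CPM with GLP-2 and at 159 to 2638 CPM (median 661) with casein, a log2 fold change of 1.62 ± 0.84. MGAM, maltase-glucoamylase, was at 784, 1379, 595, 858 and 1478 CPM with GLP-2. In casein steers of blocks 1 to 6 it was at 72.2, 369, 99.2, 661, 564 and 1369 CPM. The casein steer of block 6 therefore lay in the upper part of the GLP-2 range, and the log2 fold change was 0.96 ± 0.72 (95% interval -0.53 to 2.46). SI, sucrase-isomaltase, differed by 0.45 ± 0.46 and changed sign, to -0.10, without casein blocks 1, 2 and 3. TREH, trehalase, differed by 0.82 ± 0.40, and by 0.27 in that fit, where the median of the 4 enzymes was 0.26.

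Of the hexose transporters, SLC5A1, which couples glucose to sodium uptake, was at 551, 1071, 357, 596 and 1035 CPM with GLP-2 and at 79.9 to 952 CPM (median 314) with casein, a log2 fold change of 0.91 ± 0.61 that was 0.30 without casein blocks 1, 2 and 3 and 1.42 without the casein steer of block 6. SLC2A2, the basolateral hexose exit, differed by 0.34 ± 0.75 and by -0.43 without casein blocks 1, 2 and 3. The symbol SLC2A5, the fructose transporter, is carried by 2 genes, whose reads the counting could have split if they share sequence. The one on chromosome 16 was at 10.7, 0.33, 17.7, 22.5 and 22.6 CPM with GLP-2 and at 0 CPM in casein blocks 1, 2 and 4, 0.12 CPM in block 3, and 11.5 and 17.9 CPM in blocks 5 and 6. The one on chromosome 14 was at 5.82 to 43.8 CPM with GLP-2 and 7.39 to 26.0 CPM with casein. Its log2 fold change of 0.32 ± 0.65 changed sign, to -0.27, without the GLP-2 steer of block 3.

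Transcription factors that maintain enterocyte identity were mostly higher with GLP-2: 16 of 18 had a higher value, the median was 0.39 and 2 passed the nominal threshold. Without casein blocks 1, 2 and 3 their median was 0.15 and 0 passed it, and with the B cell follicle score as a covariate the median was 0.087. MAF, which acts in mature villus enterocytes, differed by 0.91 ± 0.37, and by 0.55 without casein blocks 1, 2 and 3. CDX2, the intestinal homeobox factor, differed by 0.27 ± 0.27, GATA4, a factor of the proximal intestine, by 0.24 ± 0.30, and KAT2B, a histone acetyltransferase, by 0.32 ± 0.22. None of CDX2, GATA4 and KAT2B passed the nominal threshold, and CDX2 and GATA4 changed sign, to -0.05 and -0.13, without casein blocks 1, 2 and 3.

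PPARGC1A (ENSBTAG00000017024, chromosome 6, 43380463 to 43501184), which encodes the coactivator PGC-1alpha of mitochondrial and oxidative genes, was at 12.5, 17.5, 11.5, 19.0 and 16.9 CPM in the GLP-2 steers, and at 10.0, 10.3, 5.03, 8.55, 5.65 and 10.0 CPM in the casein steers of blocks 1 to 6. Every GLP-2 steer was above every casein steer, a pattern found for 28 genes or 0.186% of those tested. With groups of 5 and 6 steers, a random order would separate a share of genes of about this size. Separation of the groups is therefore a description, here and for the genes below, and adds no support by itself. The log2 fold change was 0.91 ± 0.26 (adjusted p = 0.632), with a range of 0.78 to 1.00 as single steers were left out and 0.95 without casein blocks 1, 2 and 3. Of 19 genes of fatty acid oxidation, PPARGC1A included, 18 had a higher value with GLP-2, with a median of 0.50, and 2 passed the nominal threshold. ETFDH, which passes electrons from fatty acid oxidation to the respiratory chain, differed by 0.80 ± 0.33. The nuclear genes of oxidative phosphorylation had a median of 0.16, with 31 of 38 higher and 1 past the nominal threshold, and those of the tricarboxylic acid cycle a median of 0.34, with 15 of 20 higher. NNT, the mitochondrial enzyme that makes NADPH from NADH, differed by 0.87 ± 0.26. BDH1, which interconverts ketone bodies, was at 8.21, 11.3, 3.45, 9.40 and 9.98 CPM with GLP-2 and at 2.00 to 5.74 CPM with casein, a difference of 1.40 ± 0.40 that was 1.85 without casein blocks 1, 2 and 3. MTX2, part of the protein import machinery of the outer mitochondrial membrane, differed by 0.51 ± 0.16. Without casein blocks 1, 2 and 3 the values were 0.42 for ETFDH, 0.58 for NNT and 0.33 for MTX2. The list medians in that fit were 0.25 for fatty acid oxidation, 0.10 for oxidative phosphorylation and 0.20 for the tricarboxylic acid cycle. Oxidative phosphorylation had a median of 0.029 without the casein steer of block 3, and -0.059 without both steers of block 3.

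Genes of fat absorption and of epithelial junctions also had mostly higher values with GLP-2. Of 20 genes of chylomicron assembly and fat absorption, 19 had a higher value with GLP-2 and the median was 0.78, but 0 passed the nominal threshold and the median was 0.31 without casein blocks 1, 2 and 3. All 20 tight junction genes had a higher value, with a median of 0.64, and 3 passed the nominal threshold. They were OCLN (occludin; 0.78 ± 0.37), CLDN3 (claudin-3; 0.61 ± 0.28) and CLDN7 (claudin-7; 0.59 ± 0.27). CLDN7 was at 268, 498, 436, 429 and 452 CPM with GLP-2 and at 106 to 370 CPM (median 303) with casein, and the 1 GLP-2 steer that overlapped the casein group was that of block 1. CLDN3 differed by 0.39 without the casein steer of block 3. The number of tight junction genes past the nominal threshold ran from 0 to 11 as single steers were left out, and was 0 without the GLP-2 steer of block 3, without the casein steer of block 3, and without casein blocks 1, 2 and 3, where the median was 0.26. Of 25 genes of sphingolipid metabolism, 22 had a higher value, the median was 0.36 and 5 passed the nominal threshold. SGPL1, which degrades sphingosine phosphate, differed by 1.04 ± 0.39 and GLB1, the lysosomal beta-galactosidase, by 0.48 ± 0.18. ENPP7, the sphingomyelinase that digests milk and dietary sphingomyelin at the brush border, was at 74.6, 511, 9.23, 9.21 and 214 CPM with GLP-2 and at 0 to 108 CPM with casein, a difference of 2.59 ± 1.25 that was 1.52 without the GLP-2 steer of block 3.

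**Figure D2:**
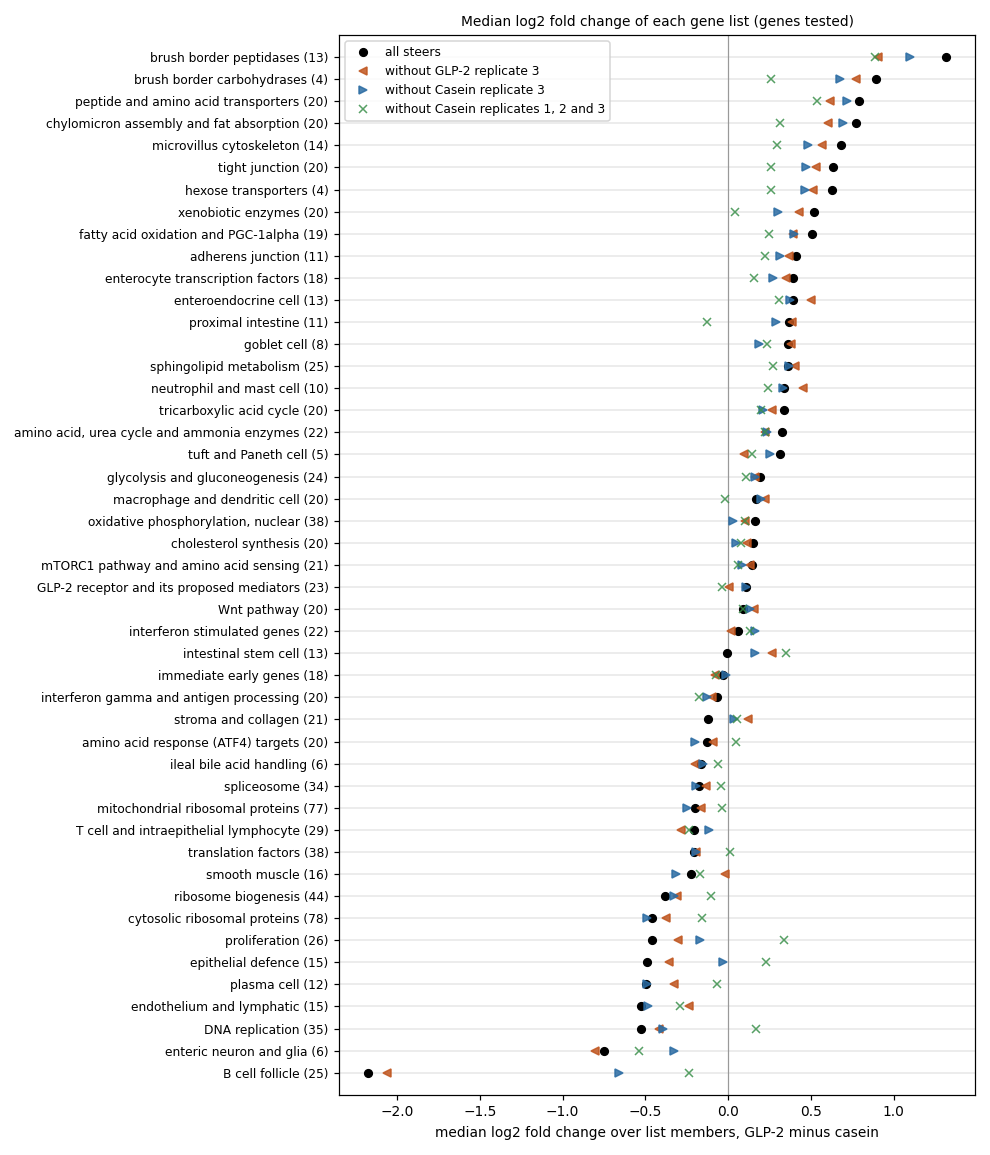
Median log2 fold change, GLP-2 minus casein, over the tested members of each gene list (number of genes tested in brackets), with all steers and with 1 or 3 steers left out (replicate numbers are block numbers). With all steers the median is 1.32 for brush border peptidases at the top and -2.17 for B cell follicle genes at the bottom, and without the 3 casein steers they are 0.89 and -0.23.

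The receptor itself did not separate the groups. GLP2R was at 29.6, 6.17, 8.29, 6.69 and 4.42 CPM with GLP-2 and at 2.65 to 37.9 CPM (median 7.80) with casein, a log2 fold change of -0.34 ± 0.68. Its highest levels, in the GLP-2 steer of block 1 and the casein steers of blocks 1 and 5, were in the libraries with the most smooth muscle transcripts. IGF1, a growth factor from the subepithelial cells that can relay GLP-2 signals, differed by 0.16 ± 0.42. Of the 23 genes of the receptor and its proposed mediators, 12 had a higher value, the median was 0.11, and 5 passed the nominal threshold. Of these, 4 were receptors of growth factors. INSR, the insulin receptor, was at 30.0, 20.5, 19.9, 18.5 and 25.8 CPM with GLP-2 and at 5.85 to 22.6 CPM (median 11.8) with casein. Only the casein steer of block 6 reached the GLP-2 range, and the log2 fold change was 0.88 ± 0.32, 1.13 without that steer and 0.41 without casein blocks 1, 2 and 3. The 3 members of the epidermal growth factor receptor family in the list had higher values as well: ERBB3 by 0.88 ± 0.33, ERBB2 by 0.67 ± 0.27 and EGFR by 0.99 ± 0.46. ERBB3 was at 336, 608, 292, 333 and 559 CPM with GLP-2 and at 138 to 390.2 CPM (median 186) with casein. Without casein blocks 1, 2 and 3 the values were 0.51 for ERBB3, 0.42 for ERBB2 and 0.36 for EGFR. None of these 3 passed the nominal threshold in that fit or without the GLP-2 steer of block 3. The fifth gene, FGF7, a growth factor of stromal cells for the epithelium, had a value of -1.23 ± 0.56, and -0.79 without casein blocks 1, 2 and 3.

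PRLR, the prolactin receptor, was at 7.97, 14.2, 4.97, 4.27 and 10.7 CPM with GLP-2 and at 1.54 to 6.02 CPM (median 2.72) with casein, a log2 fold change of 1.35 ± 0.43. The remaining genes with the smallest unadjusted p among those higher with GLP-2 included some that differed in most steers and some much higher in 1 steer. Among the former, MBP, which encodes myelin basic protein and the golli proteins of other tissues, was at 18.3 to 32.0 CPM with GLP-2 and 3.31 to 18.1 CPM with casein (1.11 ± 0.32, groups apart, and 0.70 without casein blocks 1, 2 and 3). BCORL1, a transcriptional corepressor, reached 13.8 CPM with GLP-2 and was between 4.08 and 10.0 CPM with casein (0.80 ± 0.26, groups apart, and 0.41 in the same fit). AP2A1, a subunit of the clathrin adaptor of endocytosis, differed by 0.68 ± 0.19, ZDHHC5, a palmitoyltransferase, by 0.49 ± 0.15, and ENTPD6, a nucleotide-hydrolysing enzyme, by 0.49 ± 0.15. FURIN, the protease that matures many secreted proteins and receptors, was singled out after its values were seen, as 1 of the 28 genes apart: it was at 167 to 268 CPM with GLP-2 and 62.8 to 159 CPM with casein, a difference of 0.77 ± 0.26. Without casein blocks 1, 2 and 3 the values were 0.40 for FURIN, 0.26 for ZDHHC5, 0.52 for AP2A1 and 0.41 for ENTPD6.

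Among the genes much higher in 1 steer was SLC26A3 (ENSBTAG00000015547, chromosome 4, 48780316 to 48813887), a chloride and bicarbonate exchanger of the apical membrane. It had the smallest unadjusted p of all higher genes. It was at 90.7 CPM in the GLP-2 steer of block 3, at 3.89 CPM in that of block 6, and at 0.72, 0.99 and 0.87 CPM in those of blocks 1, 4 and 5. Casein steers had 0 to 0.996 CPM. The log2 fold change of 5.66 ± 1.22 was 2.10 without the GLP-2 steer of block 3. PAPSS2, which makes the sulfate donor for sulfation, was at 299 CPM in the same steer and at 6.32 to 102 CPM in the other GLP-2 steers, with 3.07 to 32.9 CPM in casein steers, and its log2 fold change of 2.66 ± 0.82 was 1.44 without that steer. GCNT3, which builds branched mucin-type sugar chains, was instead at 171 CPM in the GLP-2 steer of block 5 and at 2.21 to 15.7 CPM in the others. Casein steers had 4.74 to 7.39 CPM of GCNT3, and without that GLP-2 steer the log2 fold change was 0.10 instead of 2.82 ± 0.85.

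The genes lowest with GLP-2 by unadjusted p were led by B cell genes. B cell follicles are the lymphoid aggregates of the gut wall, in which stromal cells secrete the chemokine CXCL13 to attract B cells. CR2 (complement receptor 2, ENSBTAG00000038496, chromosome 16, 5397503 to 5446979) was at 0.88, 0.95, 1.89, 1.94 and 0.84 CPM in GLP-2 steers of blocks 1, 3, 4, 5 and 6. In casein steers of blocks 1 to 6 it was at 26.4, 15.6, 498, 1.97, 4.99 and 2.42 CPM. The groups did not overlap, a pattern in this direction found for 44 genes or 0.292% of those tested, but casein block 4 was barely above GLP-2 block 5. CR2 had a log2 fold change of -6.13 ± 1.46 (adjusted p = 0.632), -3.00 without the casein steer of block 3 and -1.29 without casein blocks 1, 2 and 3. CXCL13 (ENSBTAG00000008479, chromosome 6, 92284631 to 92291191) was at 1.59, 0.083, 0.62, 0.097 and 0.15 CPM with GLP-2 and at 9.21, 3.42, 644, 0.75, 1.99 and 0.84 CPM with casein. The GLP-2 steer of block 1 lay within the casein range. The log2 fold change of CXCL13 was -7.77 ± 1.96, and -2.71 without the casein steer of block 3. MS4A1, the B cell surface protein CD20, was at 1.45 to 5.18 CPM with GLP-2 and at 2.07 to 366 CPM with casein, a difference of -4.59 ± 1.29 that was -2.31 without the same steer. FCRLA, an Fc receptor-like protein of B cells, was at or below 0.485 CPM with GLP-2 and at 0 to 52.6 CPM with casein (-6.28 ± 1.61). CD79A, a signalling chain of the B cell receptor, differed by -2.19 ± 0.78, and by -1.04 without the casein steer of block 3.

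Of 25 B cell follicle genes, 24 had a lower value with GLP-2, the median was -2.17 and 15 passed the nominal threshold. The summed level of the 25 genes was 218 to 281 CPM in GLP-2 steers. In casein steers it was 511, 329, 3300, 243, 353 and 261 CPM in blocks 1 to 6, and in control steers it ran from 234 to 3325 CPM. Only 2 of the 6 casein steers, of blocks 4 and 6, thus lay within the range of the GLP-2 group. The follicle median was -0.66 without the casein steer of block 3, with 5 genes past the nominal threshold, and -0.23 with 0 such genes without casein blocks 1, 2 and 3. In pieces of mucosa such as these, fewer cells of a type and less RNA per cell cannot be told apart. With the mean log2 level of the follicle genes as a covariate in the fit, 384 genes in place of 1107 passed the nominal threshold. The medians in that fit were 0.75 for the peptidases, 0.59 for the peptide and amino acid transporters and -0.11 for ribosome biogenesis. The covariate came from the same libraries and averaged 1.83 in GLP-2 and 3.14 in casein steers. Wherever it is used, it takes out part of the difference between the treatments. Values with it therefore do not show which differences depend on follicle content.

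Among lists of other cell types of the wall, plasma cell genes had a median of -0.50, with 10 of 12 lower and 0 past the nominal threshold. JCHAIN, the joining chain of secreted antibodies, ranged from 123 to 1824 CPM with GLP-2 and from 167 to 2964 CPM with casein (-1.04 ± 0.89). Of 29 genes of T cells and intraepithelial lymphocytes, 19 were lower, with a median of -0.20, and CD3E, a chain of the T cell receptor complex, differed by -0.26 ± 0.28. Macrophage and dendritic cell genes had a median of 0.17. Smooth muscle genes, of the muscle layers beneath the mucosa, had a median of -0.23, with 4 of 16 higher and 0 past the nominal threshold. Their summed level was 225 to 1162 CPM with GLP-2 and 174 to 1161 CPM with casein, and it was highest in the GLP-2 steer of block 1 and the casein steers of blocks 1 and 5. MYH11, smooth muscle myosin, was 0.999 times as high with GLP-2 as with casein, ACTA2, smooth muscle actin, differed by -0.26 ± 0.73, and DES, desmin, by -0.62 ± 0.99. COL1A1, the main fibrillar collagen, differed by 0.24 ± 0.73. CHGA, chromogranin A of enteroendocrine cells, was at 145, 62.5, 92.5, 62.2 and 78.0 CPM with GLP-2 and at 34.2 to 79.0 CPM with casein (0.54 ± 0.28, and 0.29 without the GLP-2 steer of block 1). Of 13 enteroendocrine genes, 10 were higher with a median of 0.39, and NTS, the gut peptide neurotensin, passed the nominal threshold (1.43 ± 0.60).

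The lower genes outside the B cell list included several with modest differences. RUBCNL, a regulator of autophagosome maturation, was at 42.3, 25.7, 37.4, 32.8 and 29.0 CPM with GLP-2 and at 43.4 to 75.1 CPM (median 58.8) with casein, without overlap (-0.81 ± 0.22, and -0.46 without casein blocks 1, 2 and 3). ZKSCAN5, a zinc finger protein, was at 18.0 to 30.2 CPM against 32.9 to 51.8 CPM (-0.90 ± 0.25), and ZNF354A, another, at 7.16 to 9.97 CPM with a casein median of 13.5 CPM and no overlap (-0.81 ± 0.23). The zinc finger genes were at -0.73 and -0.83 in that fit. PALB2, which recruits BRCA2 to DNA breaks, differed by -0.85 ± 0.24, BIN1, a membrane-bending protein, by -0.83 ± 0.24, and NAP1L1, a histone chaperone, by -1.13 ± 0.32, each without overlap. The 3 high casein steers of PALB2 and of NAP1L1 were again those of blocks 1, 2 and 3, and the values without them were -0.39 and -0.46, with BIN1 at -0.48. PTGDR, a receptor of prostaglandin D2, was at 0.23 to 0.68 CPM against 1.13 to 2.90 CPM (-2.11 ± 0.60). KLHDC9 was at or below 0.41 CPM with GLP-2 and at 0.58 to 3.74 CPM with casein (-3.03 ± 0.85). Lower still in level, PDE4C, a phosphodiesterase of cyclic AMP, was at 0.23 to 0.29 CPM with GLP-2 and reached 10.2 CPM in the casein steer of block 3 (-3.14 ± 0.85, and -1.52 without it). ASIC3, an acid-sensing ion channel, was at 8.14, 8.50 and 35.2 CPM in casein blocks 1, 2 and 3 and at 0 to 0.25 CPM in the other casein and all GLP-2 steers, a difference of -6.79 ± 1.80 that was -0.65 without them. COL8A1, a short-chain collagen, had counts in 1 GLP-2 steer (0.041 CPM) and 3 casein steers (up to 7.51 CPM).

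The 6 genes that DESeq2 called were CR2, CXCL13, FCRLA and MS4A1 of the follicle list, 1 of 3 genes listed as RF00334, on chromosome 15 (43880109 to 43880237), and ENSBTAG00000054260. The last 2 were singled out after their values were seen. This RF00334 gene was at 0.083 to 0.69 CPM with GLP-2 and at 0.94 to 3.65 CPM with casein, with an edgeR log2 fold change of -2.70 ± 0.67. ENSBTAG00000054260 had 0 counts in all 5 GLP-2 steers and in 4 casein steers, and was at 13.6 and 25.7 CPM in the casein steers of blocks 1 and 5. Without the casein steer of block 3, DESeq2 called only ENSBTAG00000054260. On the 11 steers alone it called 3 genes, and the 4 follicle genes and the RF00334 gene were not among them. The 3 were ENSBTAG00000054260, ZKSCAN5 and ENSBTAG00000047783, a gene without a symbol that was higher with GLP-2, with a DESeq2 log2 fold change of 3.76 (adjusted p = 0.00958) and an edgeR adjusted p of 0.632 over all steers.

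**Figure D3:**
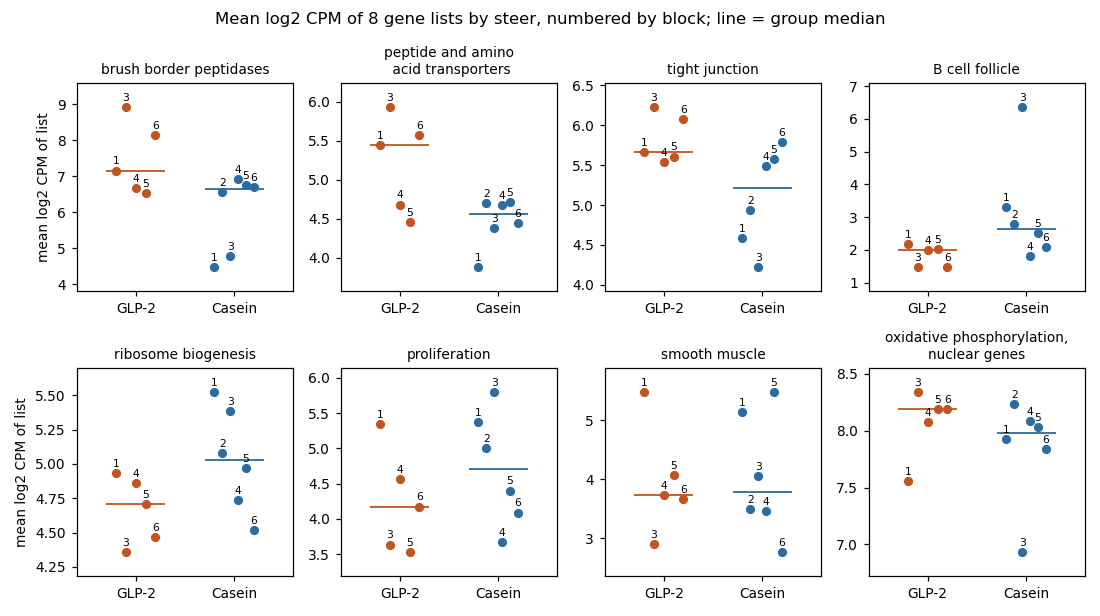
Mean log2 CPM over the members of 8 gene lists, with 1 point per steer, the block number above each point and a line at the group median. The casein steers of blocks 1 and 3 are lowest for brush border peptidases and highest for ribosome biogenesis, casein block 3 stands alone for B cell follicle genes, and the GLP-2 steer of block 1 and casein blocks 1 and 5 are high for smooth muscle.

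Genes that build ribosomes had mostly lower values with GLP-2. Of 44 genes of ribosome biogenesis, 41 had a lower value with GLP-2, the median was -0.38 and 12 passed the nominal threshold, a number that ran from 4 to 18 as single steers were left out and was 0 without casein blocks 1, 2 and 3. NOP56 (ENSBTAG00000018812, chromosome 13, 52519428 to 52524691), a core protein of the particles that modify ribosomal RNA, was at 71.8, 43.6, 80.2, 58.8 and 46.5 CPM with GLP-2. It was at 226, 173 and 187 CPM in casein blocks 1, 2 and 3 and at 65.2, 73.1 and 55.0 CPM in casein blocks 4, 5 and 6. NOP56 had a log2 fold change of -1.11 ± 0.38 with all steers and -0.10 without the former 3. BRIX1, needed for the large ribosomal subunit, differed by -1.03 ± 0.34 and POLR1C, a subunit shared by RNA polymerases I and III, by -0.73 ± 0.28, and both were -0.20 without those 3 steers. All 78 cytosolic ribosomal protein genes had a lower value, with a median of -0.46, and 10 passed the nominal threshold, from 1 to 29 as single steers were left out. Many of these genes have near-identical processed copies among which reads could have been split. Their median was -0.16, with 0 past the nominal threshold, without casein blocks 1, 2 and 3. Mitochondrial ribosomal protein genes had a median of -0.20.

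Genes of cell division had lower values with the same dependence. All 26 proliferation genes had a lower value with GLP-2, with a median of -0.46 and 1 past the nominal threshold, and 32 of 35 DNA replication genes had a lower value, with a median of -0.53 and 3 at that threshold. These were RFC5 and RFC2, of the complex that loads the replication clamp (-0.35 ± 0.16 and -0.75 ± 0.34), and GINS2, of the replicative helicase (-1.17 ± 0.55). MKI67, the antigen of dividing cells, was at 208, 77.7, 108, 48.2 and 84.1 CPM with GLP-2 and at 66.5 to 240.4 CPM (median 102) with casein, a difference of -0.38 ± 0.42. The median of both lists changed sign without casein blocks 1, 2 and 3, to 0.34 for proliferation and 0.17 for DNA replication. Intestinal stem cell genes had a median of -0.01, and LGR5, their receptor marker, was at or below 3.13 CPM in all 11 steers and at 0 in 5 of the 6 casein steers. FABP6, the ileal bile acid-binding protein, was at 0.48 to 2.98 CPM with GLP-2. It was at 14.2, 14.9 and 53.4 CPM in casein blocks 1, 2 and 3 and at 0.32 to 3.86 CPM in the other casein steers (-3.15 ± 1.23, and -0.105 without those 3), while the 6 ileal genes together had a median of -0.16.

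Each treatment was also set against the same 5 control steers, so that the values that follow share those controls and are given side by side only. The brush border peptidases had a median log2 fold change of 1.60 for GLP-2 minus control, 0.15 for casein minus control and 0.97 for casein with GLP-2 minus control. For ANPEP these were 2.69, 0.77 and 1.27, for ENPEP 2.90, -0.16 and -0.05, and for SLC3A2 1.36, -0.19 and -0.12. The median over the carbohydrases was 1.06 with GLP-2, 0.04 with casein and 1.31 with both, and that over the tight junction genes 0.59, 0.03 and 0.77. PPARGC1A stood at 1.07, 0.16 and 0.98. INSR differed from control by 1.51 with GLP-2, by 0.63 with casein and by 1.51 with both. On the lower side, the follicle genes had medians of -2.96, -0.80 and -3.34, with CR2 at -6.69, -0.56 and -5.50. Ribosome biogenesis genes had medians of -0.53, -0.07 and -0.74, and DNA replication genes -1.05, -0.51 and -1.15. The casein median lay nearer to 0 than the GLP-2 median in 43 of the 47 lists with genes tested. The exceptions were the endothelial and lymphatic genes at 0.17 with GLP-2 and 0.41 with casein, tuft and Paneth cell genes at 0.94 and 1.03, epithelial defence genes at -0.30 and -0.42, and glycolysis and gluconeogenesis genes at 0.08 and -0.10. All lists come from the same steers and were written with earlier results of these data known, so their medians are not separate results. The same count was not made gene by gene over all genes tested, so 43 of 47 has no baseline. Over all genes tested the median was 0.036 for GLP-2 minus control and 0.011 for casein minus control. The controls also differed widely among themselves. Their summed peptidase level was 1026, 735 and 394 CPM in blocks 1, 3 and 5, and 6336 and 3232 CPM in blocks 2 and 4.

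For some genes the value against control was larger with casein. ZKSCAN5 was at 0.04 for GLP-2 minus control and 0.94 for casein minus control, PALB2 at -0.01 and 0.84, and BDH1 at 0.57 and -0.82.

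**Figure D4:**
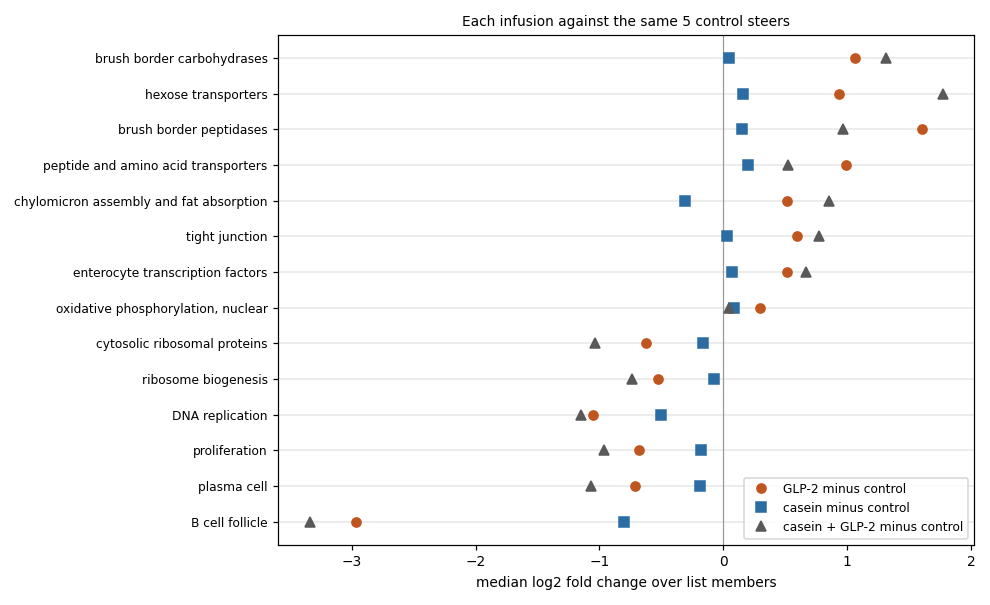
Median log2 fold change over the members of 14 of the 47 gene lists for GLP-2, casein, and casein with GLP-2, each minus the same 5 control steers. Casein points lie nearer to 0 than GLP-2 points in the 14 lists shown, from 0.15 against 1.60 for brush border peptidases to -0.80 against -2.96 for B cell follicle genes, while 4 lists not shown had the casein median farther from 0.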

How the data were processed

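Strand-specific poly(A) libraries of jejunal mucosal RNA came from 22 Holstein steers. According to the submitters' processing notes, reads were aligned to ARS-UCD1.2 with HISAT2 2.0.5 and assigned to genes with featureCounts 1.5.0-p3. The authors deposited raw counts per gene, used for the main test, and FPKM values normalized by gene length and library size, used only in limma after log2(FPKM + 1) or log2(FPKM + 0.1). Of 27570 genes, 15086 passed filterByExpr (minimum count 10). All 4 treatments were fitted together with TMM factors in edgeR 4.0.16 (R 4.3.3), and GLP-2 was compared with casein by the quasi-likelihood test, two-sided, with Benjamini-Hochberg adjustment and a threshold of 0.05. Standard errors were worked back from that test, as the absolute log2 fold change over the square root of its F statistic. They and the interval built on them are approximate. DESeq2 1.42.0 and limma 3.58.1 were alternatives. The CPM values carry the TMM factors; log2 CPM has a prior count of 2. No pair of libraries was identical. Scripts were tested on simulated data. Named genes were the 15 higher and 15 lower genes with a symbol and the smallest p, up to 3 members of each of 49 lists (1102 genes), and a written set of digestive, receptor and cell marker genes. The members, lists and tests were chosen with earlier results of these data known. The erythrocyte and mitochondrially encoded lists had 0 genes tested. A further GLP-2 steer of block 2 and a control steer of block 6 were not analysed here. Some members of the named set are not reported here. Total counts of 8809666 to 28447810 per library limit the precision of genes with few reads.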

Additional observations from a re-analysis of the deposited data

Results flagged for a closer look

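Among 206 sets of 1 named gene in 1 treatment group, 13 held a steer whose distance to its nearest neighbour, as a share of the group's range, passed Dixon's critical value. Chance alone gives about 1 in 20 groups. Values are log2 CPM. The casein steer of block 3 accounted for 5 of the 13. It was high for CXCL13, at 9.33 with the nearest other casein steer at 3.23, for PDE4C, at 3.37 with the nearest at 0.55, and for LGR5, at 1.71 where the other casein steers had no counts. It was low for the tight junction genes CLDN3, at 6.15 against 7.83, and CLDN7, at 6.73 against 7.91. In the GLP-2 group, the steer of block 3 was high for FURIN, at 8.07 against 7.57, and low for the SLC2A5 gene on chromosome 16, at -1.09 against 3.44. It was also the one GLP-2 steer with counts of COL8A1, at -2.46. For LGR5 and COL8A1 the other steers of the group had no counts, so any count in 1 steer would have passed the critical value. The remaining 5 values belonged to 5 steers. ASNS was high in the casein steer of block 1 (5.16 against 4.29) and GCNT3 in that of block 2 (2.91 against 2.46). CLDN7 was low in the GLP-2 steer of block 1 (8.07 against 8.74), BDH1 in that of block 4 (1.84 against 3.06) and BCORL1 in that of block 5 (3.41 against 3.71).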

How the results depend on the processing

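The count of 0 genes with an adjusted p no greater than 0.05 was found in 38 of 41 alternatives, and ranged from 0 to 0 as single steers of any treatment were left out. The exceptions were DESeq2 with 6 genes, DESeq2 without the casein steer of block 3 with 1, and DESeq2 on the 11 steers alone with 3, the last 2 chosen after seeing the data. The number of genes past the nominal threshold (an unadjusted p of 0.05) was 1107, and 507 to 1836 as single steers were left out. It was 1832 with no filter on low counts, 384 with the follicle score as a covariate, 138 without casein blocks 1, 2 and 3, and 330 without both steers of block 3, the last 2 also chosen after seeing the data. The cause of these shifts was not tested.

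With the block as a term (the replicate block) 0 genes were called and 962 passed the nominal threshold. Of the 73 named genes past that threshold, 59 were still past it. GCNT3 had a value of 1.11, SLC26A3 3.47, NAALADL1 2.05, DUOX2 1.75 and SLC6A19 3.38 in that fit. With the block the median was 1.51 for the brush border peptidases (1.32 without it) and 0.95 for the peptide and amino acid transporters (0.79). For the follicle genes it was -1.64 (-2.17), and for ribosome biogenesis -0.44 (-0.38). The numbers past the nominal threshold in these lists were 6, 7, 11 and 10, in place of 7, 8, 15 and 12. Steers were blocked by body weight in the study, but deviations from the group means were not shared in every block: they correlated at 0.192, -0.206, -0.167, 0.168 and 0.384 in blocks 1, 3, 4, 5 and 6, and 1 of 5 GLP-2 steers was closest to the casein steer of its own block. 

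Of 2951 values of 103 named genes, 2896 kept their direction and did not reach an adjusted p of 0.05. Another 9 reached it under DESeq2, and 46, of 18 genes, changed sign. Every named gene began at an adjusted p of 0.632 or more, so these counts mainly track direction and say little about size. Of the 73 named genes past the nominal threshold, 17 were still past it without casein blocks 1, 2 and 3. Without casein blocks 1, 2 and 3 the log2 fold change became -0.096 for SI, -0.13 for GATA4, 0.46 for MKI67, -0.047 for CDX2, -0.43 for SLC2A2, 0.0083 for ACTA2, 0.11 for PSAT1, 0.34 for SLC1A5, 0.067 for ASNS, 0.29 for SLC7A5 and 5.90 for LGR5. With the follicle covariate it became 0.23 for JCHAIN, -0.14 for GATA4, 0.19 for MKI67, -0.36 for SLC2A2, 0.49 for ACTA2, 0.66 for MYH11, 0.29 for DES, 0.21 for SLC7A5 and 4.69 for LGR5. Without both steers of block 3 it became -0.022 for SI, -0.44 for SLC2A5 on chromosome 14, 0.22 for MYH11 and 6.16 for LGR5. LGR5, at 0 in 5 casein steers, was also 1.24 with the replicate block, 1.13 with the block and gene length, 0.032 and 0.47 in limma with pseudocounts of 1 and 0.1, and 5.11 in DESeq2 without the casein steer of block 3, where MYH11 was 0.0023. As single steers were left out, the ranges that crossed 0 were -0.86 to 0.038 for ACTA2, -0.34 to 0.52 for COL1A1, -1.20 to 0.49 for MYH11, -0.38 to 0.0024 for ASNS, -0.27 to 0.56 for SLC2A5 on chromosome 14, -1.11 to 0.27 for GLP2R, -0.0077 to 0.56 for IGF1 and -0.69 to 0.27 for LGR5. Of 1363 list medians, 75 had the other sign. Depth limits genes near 1 CPM, where few reads decide a value.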

Other observations

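The gene groups not yet described had medians on both sides of 0. The mTORC1 pathway and amino acid sensors, through which cells match growth to nutrients, had 11 of 21 genes higher with GLP-2, a median log2 fold change of 0.14 and 0 genes past the nominal threshold, an unadjusted p of 0.05. The sign of that median turned to -0.01 with a correction for gene length. Wnt pathway genes, which sustain the crypt, had a median of 0.09, immediate early genes -0.03, and interferon stimulated genes 0.06, which was -0.03 with the length correction. Goblet cell genes had a median of 0.36, with 7 of 8 higher and 0 at that threshold, and genes of the microvillus cytoskeleton 0.68, with 12 of 14 higher and 1 at it, and 0.30 without casein blocks 1, 2 and 3. Genes of xenobiotic enzymes had a median of 0.52, with 17 of 20 higher, and 0.041 in that fit. On the lower side stood endothelial and lymphatic genes at -0.53, with 12 of 15 lower, epithelial defence genes at -0.49, with 10 of 15 lower and a median of 0.23 without those 3 steers, and spliceosome genes at -0.17, with 26 of 34 lower and 6 past the threshold, a number that ran from 1 to 6 as single steers were left out and was 0 without those 3 steers.

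DUOX2, an oxidase of the epithelial surface that makes hydrogen peroxide, had its high level in 1 animal. It was at 0.40, 1.24, 46.7, 5.91 and 0.92 CPM in the GLP-2 steers of blocks 1, 3, 4, 5 and 6, and at 0.42 to 3.10 CPM in casein steers. The log2 fold change was 2.94 ± 1.12, and 0.54 without the GLP-2 steer of block 4. That steer and the one of block 5 were also the highest for GCNT3, at 15.7 and 171 CPM.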
